A study of Mus musculus with 33 samples.

Results

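The comparison set the untreated libraries labelled spleen against the untreated libraries labelled lymph node, which together made up 8 of the 33 libraries of the series. They were chosen by their labels alone, 5 of them labelled spleen and 3 labelled lymph node. All came from C57Bl/6 mice that received no nicotinamide (NAM, a form of vitamin B3), and the other 25 libraries came from mice that drank 0.5% NAM for 1, 3 or 14 days. Polyadenylated RNA was sequenced as paired ends. Per the labels it was extracted fresh from lymph nodes and spleens, and per the study's methods from recovered tissues kept in an RNA stabiliser, whereas another passage of the study speaks of splenocytes and cells of the lymph node. The study's methods state female mice and a range of ages for its experiments as a whole, and name inguinal nodes for its flow cytometry. The age of these animals, the site of the nodes used for RNA and whether any animal gave both organs are not given in the sources used here.

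Spleen and lymph node both hold lymphocytes in B cell follicles and T cell zones, and differ in what surrounds them. A lymph node drains tissue fluid through lymphatic vessels, admits lymphocytes from blood through high endothelial venules, and lies embedded in fat. The spleen filters blood instead: macrophages of its red pulp take up old red cells and recycle their iron, its marginal zone holds a B cell population of its own, and in the mouse it also makes blood cells. Its connective tissue is built under a set of homeobox transcription factors that a lymph node does without.

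Whole reads numbered 18325061 to 31486631 per library under the spleen label, against 31625621 to 34898008 under the lymph node label. Values are normalised read counts, that is, reads per gene divided by a library factor, after all 8 libraries were put on a common scale, and they are not corrected for gene length. Over 18971 rows (a row is an annotated gene, or a few genes that share a row), Pearson's r between log2 values was 0.963 to 0.985 within the spleen label, 0.987 to 0.988 within the lymph node label and 0.860 to 0.890 between them. The libraries labelled spleen fell into 2 sets. Adipoq, which encodes the fat cell hormone adiponectin, stood at 2742 and 5452 normalised read counts in replicates 1 and 3 and at 13602, 14094 and 13380.0 in replicates 2, 4 and 5. Counts of genes are therefore also given without the one or the other set where that moved them by more than 1.5-fold. The mitochondrial genome took 8.92% to 9.85% of reads under the spleen label, against 4.94% to 5.35% under the lymph node label, and its part in the results below was not tested.

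Markers of the 2 organs went against the labels. Glycam1, whose product is a mucin made by the high endothelial venules of lymph nodes (chromosome 15, 103562762 to 103565081 of mm10), had 160921, 110604, 185618, 111569 and 116991 normalised read counts in the 5 libraries labelled spleen and 8.07, 6.96 and 1.74 in the 3 labelled lymph node. Lyve1, a hyaluronan receptor of lymphatic vessels (chromosome 7, 110850603 to 110863059), had 867, 1532, 919, 842 and 1052 under the spleen label, against 12.9, 13.9 and 5.23 under the lymph node label. Both were high in every library labelled spleen and near the bottom of the scale in the others, with no overlap.

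The 3 spleen markers had the opposite order. Spic, the transcription factor of red pulp macrophages (chromosome 10, 88674774 to 88683026), stood at 1057, 866, 1122, 829.6 and 830.2 under the spleen label, against 7836, 7695 and 7039.7 under the lymph node label. Tlx1 (chromosome 19, 45150715 to 45156943), without which the mouse forms no spleen, had no read in any library labelled spleen and 278, 323 and 453 normalised read counts under the lymph node label. Nkx2-5 (chromosome 17, 26838664 to 26841615), a homeobox factor of the spleen primordium, likewise had no read under the spleen label, and 179, 177 and 188 in the libraries of the other label. With the floor set at 3 reads in each library without a read, Tlx1 was at least 104.8-fold and Nkx2-5 at least 54.2-fold higher under the lymph node label.

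**Figure D1:**
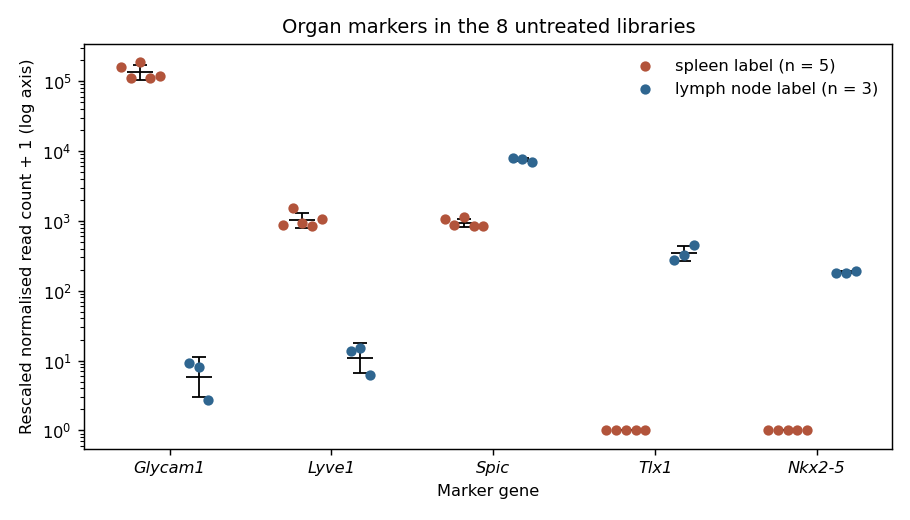
Rescaled normalised read counts plus 1, on a log axis, of 5 organ markers in the 8 untreated libraries. Points are libraries, and the horizontal mark with bars gives the mean and 1 SD of the log values of each label. Glycam1 and Lyve1, markers of the lymph node, are high under the spleen label, and Spic, Tlx1 and Nkx2-5, markers of the spleen, are high under the lymph node label, with no overlap for any of them.

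The treated libraries kept this order. Over all 33 libraries on a common scale, Glycam1 ranged from 112357 to 225148 in the 20 labelled spleen and from 1.52 to 11.7 in the 13 labelled lymph node, and Tlx1 from 0 to 4.24 against 335 to 544. Nkx2-5 had no read in any of the 20 libraries labelled spleen. The groups are therefore named only by their labels, and every direction below is that of a label.

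The 2 labels differed in a large part of the transcriptome. By limma with Benjamini-Hochberg adjustment, 11790 of 18971 rows (62.1%) passed an adjusted p of 0.05 at any fold, 31.5% higher under the spleen label, against 30.6% higher under the lymph node label. A row was called when it also differed at least 2-fold, and 5140 rows were called, 27.1% of those tested. Of these, 2912 (15.3%) were higher under the spleen label, against 2228 (11.7%) under the lymph node label. The libraries of the 2 labels did not overlap in 60.1% of rows. At 4-fold or more, 1095 rows were higher under the spleen label, against 767 under the lymph node label, and at 64-fold or more 75 and 59. The samples are bulk tissue, so fewer cells of a type and less RNA per cell cannot be told apart in any of these differences.

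The treated libraries share no sample with the untreated ones. Among them 3047 of 19404 rows (15.7%) were called higher under the spleen label, against 2205 (11.4%) under the lymph node label, 27.1% in all, with the duration of treatment as a term in the fit. Of the untreated calls higher under the spleen label 2440 were called again, which is 83.8% of the untreated and 80.1% of the treated calls. For those higher under the lymph node label the shared calls numbered 1653, or 74.2% and 74.97%. Calls in opposite directions numbered 0.

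By the size of the difference, the row that led under the spleen label was Glycam1, and 5 of the 12 leading rows were on the adipocyte list. Glycam1 differed by 14.49 on the log2 scale (SE 0.35, adjusted p = 1.79e-09). These 5 were Cfd, the complement factor adipsin, Car3, a carbonic anhydrase of fat cells, Plin1 and Cidec, both proteins of the lipid droplet, and Lep, which encodes leptin. Lep had no read under the lymph node label and stood at 287, 1174, 669.5, 926 and 854 under the spleen label, at least 306.8-fold higher. Cidec had 3 reads in all under the lymph node label, and the ratio of the labels was 3764 with a counting interval of 1288 to 18255. Leading rows outside the fat list were Vtn, encoding the adhesion protein vitronectin, with a log2 difference of 9.97, the cytochrome Cyp2e1 (9.61), the adrenergic receptor Adrb3 (8.97), the carboxylesterase Ces1d (8.85), Pck1, an enzyme of glucose synthesis (8.50), and the Wnt modulator Sfrp2, whose 2 reads under the lymph node label gave a ratio of 1029 (284.6 to 8500).

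Among the libraries Vtn did not follow the fat genes. Vtn had 2802, 2117, 2597, 1786 and 2196 normalised read counts under the spleen label, against 3.23, 1.74 and 0 under the lymph node label, and unlike Cidec, Plin1 or Cyp2e1 it was not lowest in replicates 1 and 3. Cyp2e1 stood at 674 and 1069 in replicates 1 and 3 and at 4662, 4514 and 4702 in replicates 2, 4 and 5.

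Rows that led under the lymph node label belonged to red cells, platelets and spleen stroma. Tcf21, a factor of mesenchymal cells of the spleen, had 2915, 2491 and 3390.3 normalised read counts under the lymph node label and 1.64 in 1 library labelled spleen, with 0 in the other 4, and the ratio of 6894 rested on 2 reads (counting interval 1908 to 56935). Slc4a1, the anion exchanger of the red cell membrane, differed by 10.33 on the log2 scale, the platelet chemokine Ppbp by 10.01, and the carbonic anhydrase Car1 of red cells by 9.03. The row outside the lists was Gdpd2, a glycerophosphodiester phosphodiesterase, with 2801, 2569 and 3075 normalised read counts under the lymph node label against 15.1, 9.86, 5.14, 1.08 and 8.97 under the spleen label (log2 difference of 8.57, SE 0.54, adjusted p = 4.33e-07). Over the 24 leading rows the highest limma adjusted p with 1 library left out was 0.000238.

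**Figure D2:**
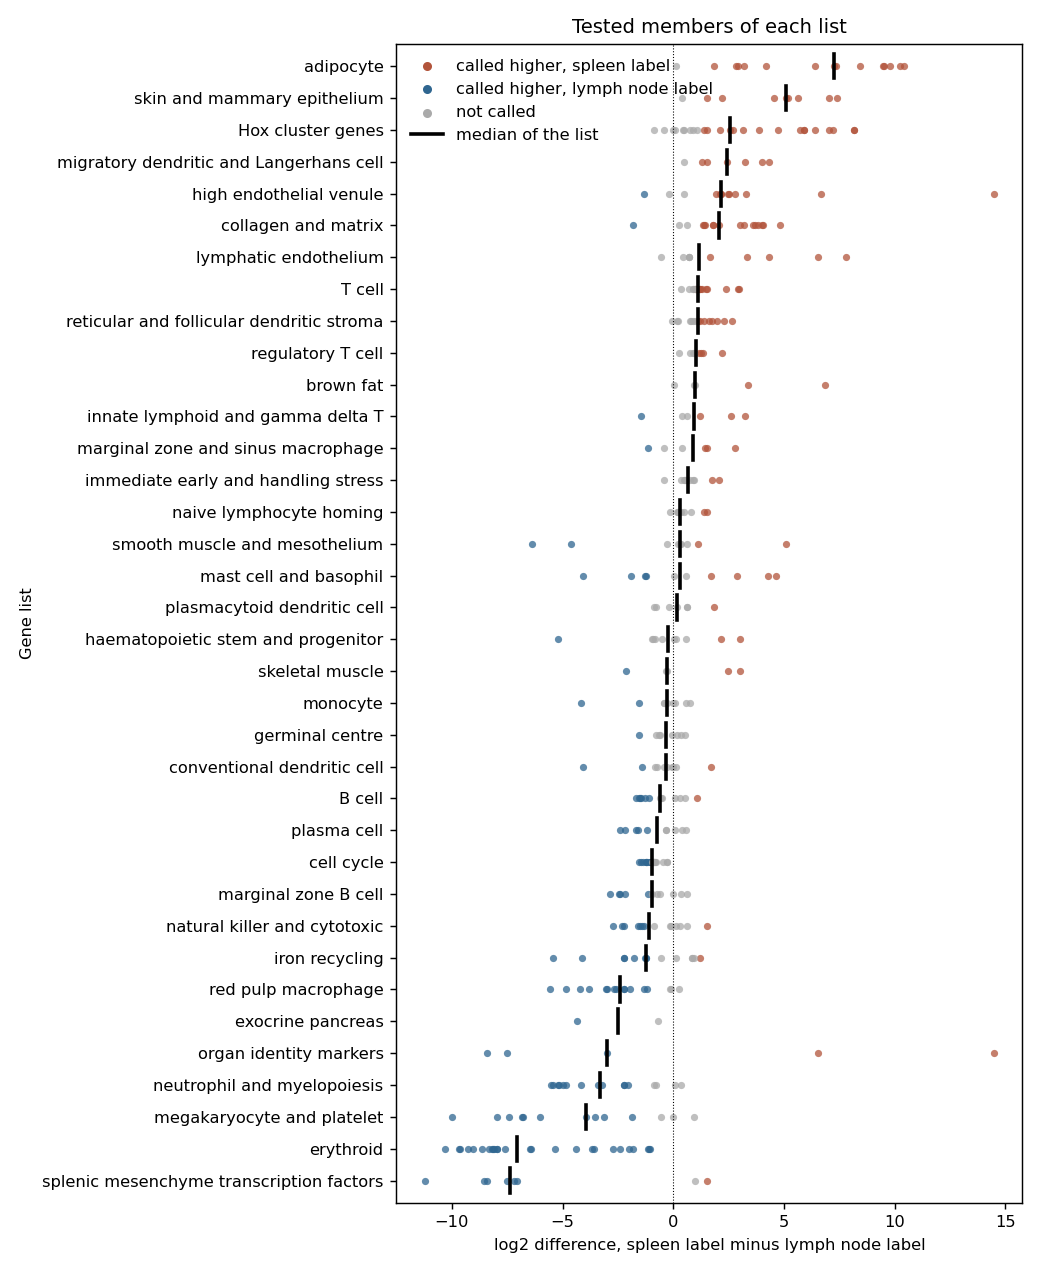
Log2 difference, spleen label minus lymph node label, of the tested members of 36 gene lists. Each point is a gene, coloured by the label in which it was called higher or grey where it was not called, and the black bar is the median of the list. Adipocyte genes have the highest median (7.25) and transcription factors of spleen mesenchyme the lowest (-7.35), although with members without a read set at their bound the erythroid list (-6.36) lies below that list (-6.24).

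Transcription factors of spleen mesenchyme were mostly higher under the lymph node label. Of 8 tested members 6 were called higher under the lymph node label and 1 under the spleen label. The median log2 difference was -7.35, or -6.24 with the 3 members without a read under the spleen label set at their bound, beside -0.01 over all rows. Nkx2-3, which the spleen needs for its vessels and marginal zone, had 449.7, 466 and 458 normalised read counts under the lymph node label and 2 reads in all under the spleen label (ratio 1076, counting interval 297.5 to 8896). Nkx3-2, also called Bapx1, stood at 169.5, 193 and 167 against 2 reads, and Wt1, the Wilms tumour factor of spleen mesothelium, at 139.7, 109 and 159 against 0, at least 40.5-fold higher. Nr2f2, a nuclear receptor of veins and lymphatic vessels, was 0.98 higher under the spleen label and fell short of 2-fold. It was called in addition when replicate 4 or 5 of the spleen label or replicate 3 of the lymph node label was left out, or replicates 2, 4 and 5 of the spleen label together, which made 2 members.

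Hox genes pattern the body along its length and are kept on in connective tissue according to its position. In 25 tested rows of the 4 clusters, 16 were called higher under the spleen label, while none was under the other label by this test, with a median log2 difference of 2.58. All 6 tested rows of cluster C and all 4 of cluster D were called, 4 of 7 in cluster B (Hoxb3, Hoxb5, Hoxb6 and Hoxb9) and 2 of 8 in cluster A (Hoxa7 and Hoxa10). Hoxc8 had 167, 343, 257, 368 and 342 normalised read counts under the spleen label and Hoxc10 had 202, 365, 257, 277 and 360.4, and neither had a read under the lymph node label, so they were at least 115.9-fold and 114.6-fold higher. Hoxc9, Hoxa10 and Hoxd10 also had no read there, and were at least 52.6-fold, 24.5-fold and 32.8-fold higher. Hoxd9 stood at 131, 110.0, 125, 119 and 117 against 3.23, 1.74 and 0, and Hoxd8 at 344, 353, 347, 235 and 325 against 27.4, 13.0 and 23.6.

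The early members of cluster A did not follow this. Hoxa2, Hoxa3, Hoxa4 and Hoxa5 overlapped between the labels, with log2 differences from -0.42 to 0.44 and adjusted p of 0.203 to 0.995. The row shared by Hoxb7 and Hoxb8 was lower under the spleen label (39.2, 37.0, 47.5, 36.6 and 46.6 against 71.0, 69.6 and 85.5, log2 difference of -0.85, adjusted p = 0.00291) and missed the 2-fold limit. Of 12 further rows under the filter, 9 had no read in any of the 8 libraries: Hoxa13, Hoxb1, Hoxc11, Hoxc12, Hoxc13, Hoxd1, Hoxd11, Hoxd12 and Hoxd13. The other 3, Hoxa6, Hoxa11 and Hoxb13, stayed at or under 9.05 normalised read counts.

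**Figure D3:**
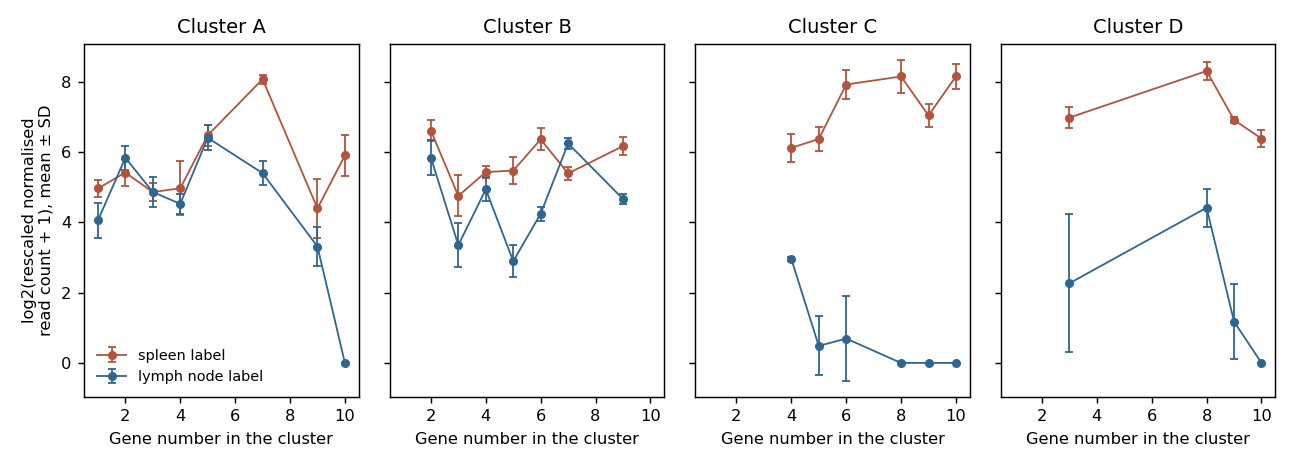
Mean and SD over libraries of log2(rescaled normalised read count + 1) for tested Hox genes, by cluster and gene number, under the spleen label (n = 5) and the lymph node label (n = 3). The lines run close together from gene 2 to gene 5 of cluster A, cross at gene 7 of cluster B, and lie apart throughout clusters C and D, where the lymph node label is at 0 for genes 8, 9 and 10 of C and gene 10 of D.

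Genes of high endothelial venules were called higher under the spleen label in 10 of 13 rows, with a median log2 difference of 2.18. Chst4, the sulfotransferase that completes the ligand of lymphocyte homing, had 1062, 711, 1191, 679 and 783 normalised read counts under the spleen label, against 4.84, 6.96 and 12.2 under the lymph node label (log2 difference of 6.67, SE 0.27, adjusted p = 3.09e-08). Fut7, the fucosyltransferase of the same ligand, differed by 3.27 and the chemokine receptor Ackr1 by 2.78. Replicates 1 and 3 of the spleen label, low in fat transcripts, were the highest for Glycam1, Chst4 and Fut7. Madcam1, the ligand of gut-homing lymphocytes that also lines the marginal sinus of the spleen, was the 1 member called higher under the lymph node label, with 640.2, 506 and 754 against 267, 189, 348, 202 and 288 (log2 difference of -1.31, SE 0.20, adjusted p = 0.000262).

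Lymphatic vessel genes were called higher under the spleen label in 5 of 10 tested rows and under the lymph node label in none by this test. Tbx1, a T-box factor of lymphatic vessels, had 225, 268, 269, 147 and 238 normalised read counts under the spleen label and no read in the others, at least 90.0-fold higher. Pdpn, encoding podoplanin, differed by 3.33 and Foxc2, the factor of lymphatic valves, by 4.31. Prox1, which sets lymphatic identity, overlapped: 99.5, 214, 145, 144 and 212 against 102, 117 and 71.5 (log2 difference of 0.72, adjusted p = 0.0341).

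Of 15 genes of stroma in T cell zones and follicles, 8 were called higher under the spleen label and the other 7 were not called. Ccl21a, the chemokine that guides T cells and dendritic cells and one of several near-identical copies whose reads cannot be told apart with certainty, had 39456, 23314, 33033, 23918 and 23734 normalised read counts under the spleen label against 5831, 4874 and 6588 (log2 difference of 2.29, SE 0.18, adjusted p = 2.15e-06). Grem1, a BMP antagonist of T zone stroma, differed by 2.65. The follicle chemokine Cxcl13 did not pass the test, with 1552, 1779, 2968, 1504 and 2259 against 1791, 1445 and 1866 (log2 difference of 0.20, adjusted p = 0.405), and neither did Cxcl12 or the opsonin Mfge8 of follicular dendritic cells.

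Red pulp macrophage genes stood on the side of Spic. Of 16 rows 13 were called higher under the lymph node label and none under the spleen label by this test, with a median log2 difference of -2.41. Fcna, a ficolin of spleen macrophages, had 9703, 10212 and 10106 normalised read counts under the lymph node label and 101, 218, 242, 213 and 351 under the spleen label (log2 difference of -5.57, SE 0.30, adjusted p = 1.62e-07). Siglece (-4.86), Cd5l (-4.20), which encodes an apoptosis inhibitor of macrophages, and Treml4 (-3.82) followed. Adgre1, an adhesion receptor that marks mouse macrophages, had 2235, 1949 and 2127 under the lymph node label and 188 to 315 under the spleen label.

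Genes of iron recycling were called higher under the lymph node label in 8 of 14 tested rows. Slc40a1, encoding the iron exporter ferroportin, had 12878, 13089 and 11670.0 normalised read counts against 190.0, 272, 349.5, 281 and 397 (log2 difference of -5.43, SE 0.19, adjusted p = 1.52e-08). Hmox1, the haem oxygenase that opens the haem ring, had 33675, 37358 and 30948 against 1701, 2125, 2760.3, 1616 and 1782. Both biliverdin reductases, which act next, were also called (Blvrb -1.76, Blvra -1.21), as was the ferritin light chain Ftl1 (-1.21), while the heavy chain Fth1 overlapped (adjusted p = 0.274). Heph, encoding the copper oxidase hephaestin, was the 1 member called higher under the spleen label (1.22), and it was lowest in replicates 1 and 3. Without replicates 1 and 3 of the spleen label 3 members were called higher there, without replicates 2, 4 and 5 none, and without replicate 1 of the spleen label or replicate 2 of the lymph node label 2.

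Macrophages that line the sinuses of both organs gave no common direction. Cd209b, a lectin that captures blood-borne and lymph-borne particles, was higher under the spleen label (3224, 4526, 6639, 3760.5 and 4404 against 627, 677 and 612, log2 difference of 2.78), as were Siglec1 (1.51) and the receptor Timd4 (1.44). Nr1h3, the oxysterol receptor that marginal zone macrophages depend on, was higher under the lymph node label (-1.15). Marco, a scavenger receptor, overlapped, with 9985 to 22877 under the spleen label, against 10120.0 to 11996 under the lymph node label.

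Erythroid genes all pointed one way. All 26 tested rows were called higher under the lymph node label and none of them overlapped, with a median log2 difference of -7.04, or -6.36 with 3 members without a read at their bound. The 4 globin rows took 4.11% to 8.50% of reads under the lymph node label and 0.00890% to 0.0395% under the spleen label. Hbb-bs, an adult beta globin, had 911923, 449903 and 717735 normalised read counts under the lymph node label and 1019, 2832, 1654, 3864 and 3597 under the spleen label. The globins occur as near-identical pairs, so the split within a pair is uncertain. Alas2, the first enzyme of haem synthesis in red cells, had 21388, 10212 and 16816 against 15.1, 53.4, 42.4, 86.1 and 72.6 (log2 difference of -8.34, SE 0.47, adjusted p = 2.21e-07).

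Genes of dividing precursors and genes of late red cells ranked the libraries differently. Klf1, the erythroid Krüppel-like factor, stood at 305, 629.6 and 329.7 in replicates 1, 2 and 3 of the lymph node label, Gata1 at 249.4, 482 and 285 and the erythropoietin receptor Epor at 207, 350.4 and 304. Replicate 2 was the highest of the 3 in these, and the lowest for Hbb-bs and Alas2. Under the spleen label Klf1 ranged from 0 to 7.71 and Gata1 from 30.5 to 59.1. The smallest differences of the list were those of genes other cells also use, such as the transferrin receptor Tfrc (-1.12), the last enzyme of haem synthesis Fech (-1.10) and Tspan33 (-1.03). Without replicates 1 and 3 of the spleen label 24 members were called.

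Erythroid genes are bound in their promoters by GATA1, which reads AGATAA, and by KLF1, which reads CACCC boxes. RefSeq promoters of assembly GRCm38.p6 (250 bases before to 50 after the start) were matched for 19 of the 26 members, and AGATAA stood on either strand in 8 of them, or 42.1%, against 7.00% of 11430 promoters of tested rows. It stood in 5 of 10 promoters of platelet genes (50%), 3 of 10 of high endothelial venule genes (30.0%), 1 of 11 of adipocyte genes (9.09%) and 1 of 12 of red pulp macrophage genes (8.33%). Of CACCC boxes only the form CCACACCC was searched for. It stood in 1 erythroid promoter, that of Hbb-bs (5.26% against 3.88%). It also stood in 1 of 12 promoters of red pulp macrophage genes and 1 of 11 of adipocyte genes. High endothelial venule genes had it in 1 of 10 promoters and platelet genes in 0 of 10. Other CACCC boxes were not counted, and some stand in lower case in the stretches below, as in Kel and Epor. GAGGAAGT, a PU box, stood in 0 of 12 red pulp macrophage promoters, against 3.19%. These are matches of letters and not measured sites. The 150 bases before the start are shown for 5 erythroid genes in which a match fell within that stretch, 5′ to 3′ on the strand of the gene, with AGATAA (or its reverse complement TTATCT) and CCACACCC in capitals.
Alas2 (chrX:150547267-150547416, plus strand): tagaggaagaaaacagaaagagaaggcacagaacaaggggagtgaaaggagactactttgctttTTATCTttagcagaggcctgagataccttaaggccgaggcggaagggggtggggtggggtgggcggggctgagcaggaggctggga
Kel (chr6:41704326-41704475, minus strand): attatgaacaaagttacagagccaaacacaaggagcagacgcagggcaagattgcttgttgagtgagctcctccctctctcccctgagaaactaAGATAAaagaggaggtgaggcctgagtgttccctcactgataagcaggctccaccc
Rhd (chr4:134864386-134864535, plus strand): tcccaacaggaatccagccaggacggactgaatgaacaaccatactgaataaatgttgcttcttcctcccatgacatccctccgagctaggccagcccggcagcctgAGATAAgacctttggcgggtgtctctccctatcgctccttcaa
Epor (chr9:21963577-21963726, minus strand): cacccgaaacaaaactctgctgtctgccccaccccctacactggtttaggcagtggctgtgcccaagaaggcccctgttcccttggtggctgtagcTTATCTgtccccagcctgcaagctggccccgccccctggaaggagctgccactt
Hbb-bs (chr7:103827929-103828078, minus strand): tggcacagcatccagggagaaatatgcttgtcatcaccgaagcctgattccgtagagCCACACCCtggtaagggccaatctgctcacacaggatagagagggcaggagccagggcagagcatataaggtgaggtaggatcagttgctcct

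The first bases of these matches lay 86 bases before the start in Alas2, 56 in Kel, 43 in Rhd, 54 in Epor and 93 in Hbb-bs. Kel, which encodes a blood group protein of the red cell membrane, had 291, 477 and 448 normalised read counts under the lymph node label and no read under the spleen label, at least 120.9-fold higher. Rhd, of the Rhesus group, had 466, 873 and 789 against 0 to 3.02.

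Platelet genes were called higher under the lymph node label in 10 of 13 rows. Ppbp had 4755, 4720.1 and 4904 normalised read counts against 3.02, 1.64, 17.99, 0 and 9.86, and Gp9, part of the platelet von Willebrand receptor, 523, 604 and 609.7 against 0 to 5.14. The members that were not called were Vwf (0.96) and Itgb3 (-0.01), which are also genes of endothelium and other cells, and Itga2b (-0.56).

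Genes of neutrophils and their precursors were called higher under the lymph node label in 12 of 16 rows, with a median log2 difference of -3.31. Retnlg, a neutrophil resistin, had 2038, 2909.6 and 1893 normalised read counts against 24.1, 34.5, 99.0, 36.6 and 83.4 (log2 difference of -5.51, SE 0.42, adjusted p = 1.50e-06). S100a8 (-5.20) and S100a9 (-5.17), the subunits of calprotectin, and Mpo (-4.83) and Elane (-4.17), granule enzymes of neutrophil precursors, were called too. Under the spleen label replicate 3 was highest for Retnlg, S100a8 and S100a9. Cxcr2, the receptor of mature neutrophils, was not called (0.34), and Mmp9 overlapped.

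B cell genes were called higher under the lymph node label in 6 of 13 rows and higher under the spleen label in 1. Cd79b, a signalling chain of the B cell receptor, had 26360.0, 25729 and 25208 normalised read counts under the lymph node label and 8808, 8178, 9399, 8851 and 8555 in the libraries labelled spleen (log2 difference of -1.56, SE 0.07, adjusted p = 3.79e-08). Blk (-1.47) and Ms4a1, encoding CD20 (-1.29), were called too. Ebf1, a transcription factor of early B cells and also of fat and stromal cells, was higher under the spleen label (1653, 1648, 1383, 1766 and 1999 against 843, 819 and 700.4). It was not called on the deposited scale, with the replicate number as a block, or without replicates 2, 4 and 5 of the spleen label. Pax5 and Fcer2a were higher under the spleen label by less than 2-fold (0.54 and 0.32).

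Marginal zone B cell genes were called higher under the lymph node label in 5 of 11 rows and in none under the spleen label by this test. Plac8 had 23668, 26711 and 24403 normalised read counts against 3089 to 3936 (log2 difference of -2.88, SE 0.08, adjusted p = 6.36e-09), Asb2 differed by -2.47 and the Fc receptor-like protein Fcrl5 by -2.39. Cr2, the complement receptor that follicular B cells and follicular dendritic cells also carry, differed by -1.13. Notch2, on which these cells depend and which many other cells express, was higher under the spleen label by less than 2-fold (0.64).

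Plasma cell genes were called higher under the lymph node label in 5 of 10 rows. Jchain, the joining chain of IgM and IgA, had 39246, 36978 and 39029 normalised read counts under the lymph node label and 2787, 6399.6, 8138, 13552 and 9814 under the spleen label, where the libraries spread widely. Mzb1, a chaperone of antibody secretion, differed by -2.19. The regulators Prdm1 and Irf4 and the surface marker Sdc1 were not called and their libraries overlapped. Their log2 differences were 0.39 (adjusted p = 0.0435), 0.10 and 0.56. Xbp1, another regulator, was higher under the lymph node label by less than 2-fold and without overlap (-0.30, adjusted p = 0.00835). The row of the immunoglobulin heavy chain locus took 1.81% to 1.87% of reads under the lymph node label and 0.682% to 1.14% under the spleen label. Germinal centre genes were called in 1 of 8 rows, beside 27.1% of all rows. The called one was Rgs13 (-1.55, adjusted p = 0.00863), and without replicate 1 of the lymph node label 0 rows were called.

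T cell genes were called higher under the spleen label in 12 of 17 rows, and in none under the lymph node label by this test. Tcf7, encoding TCF1 of naive T cells, had 8822, 6696, 7294, 7308 and 6483 normalised read counts under the spleen label, against 911, 1103 and 913 under the lymph node label (log2 difference of 2.90, SE 0.11, adjusted p = 1.63e-08). Bcl11b, which fixes T cell identity, differed by 2.99 and Lef1, a relative of Tcf7, by 2.38. Cd3e differed by 1.51, Cd4 by 1.00 and Cd8a by 0.91, while Cd3d overlapped (adjusted p = 0.0575). Without replicates 1 and 3 of the spleen label, which had the highest sums of T cell transcripts (90958 and 81927 against 62173 to 72506), 7 of the 17 were called, and without replicates 2, 4 and 5 there were 15.

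Regulatory T cell genes were called higher under the spleen label in 4 of 8 rows, among them Foxp3 (673, 577, 589, 549 and 449 against 219.6, 257 and 185) and Il2ra, encoding CD25 (2.19). Of 10 genes of naive lymphocyte traffic only Foxo1 (1.53) and its target Klf2 (1.40) were called, beside 15.3% of all rows called higher under the spleen label. Ccr7 and S1pr1 differed by 0.36 and 0.21.

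Killer cell genes were split. Of 14 rows 7 were called higher under the lymph node label, among them Gzma (2199, 2673 and 2446 against 452, 348, 447, 391 and 259, log2 difference of -2.70) and the receptors Klre1 (-2.32), Klra4 (-2.24) and Klrb1c (-1.61). Klra genes are a family of similar sequence, so the values of single members are uncertain. Ccl5, a chemokine of memory T cells and killer cells, was the 1 member called higher under the spleen label (21899, 14970.0, 16802, 12326 and 10561 against 5502, 4719 and 5417), and Prf1, Nkg7 and Tbx21 overlapped.

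Of innate lymphoid genes, Il23r (2.60) and Sox13 (1.21) were among those called higher under the spleen label, and Blk, which B cells share, was called in the other direction (-1.47). Il17a and Il22 had no read in any of the 8 libraries.

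Calls among dendritic cell genes differed by subset, and the subsets were not tested against each other. Those of cells that migrate from tissues were called higher under the spleen label in 6 of 7 rows, with a median log2 difference of 2.41. Ccl22, a chemokine of mature dendritic cells, had 16912, 9857, 12709, 8593 and 8700.0 normalised read counts under the spleen label, against 544, 463 and 618 under the lymph node label (log2 difference of 4.35, SE 0.21, adjusted p = 7.73e-08), and Fscn1, the actin bundler of their processes, differed by 3.99. Cd207, encoding langerin, overlapped. Of resident dendritic cell genes, Clec4a4, a lectin of spleen dendritic cells, stood at 221, 222 and 213 under the lymph node label and 4.52 to 23.8 under the spleen label (-4.09), Itgax was higher under the lymph node label (-1.40) and Itgae, encoding CD103, under the spleen label (1.72), while Flt3 (0.01) and Xcr1 (0.13) overlapped.

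Plasmacytoid dendritic cell genes gave 1 call in 7 rows, Runx2 (1.82), and Siglech overlapped. Without replicates 1 and 3 of the spleen label 1 member was also called under the lymph node label. Monocyte genes gave 2 in 9, both higher under the lymph node label: Chil3 (-4.15), which neutrophil precursors share, and Csf1r (-1.55), which macrophages share. Ccr2 overlapped.

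Mast cell and basophil genes pointed in opposite directions within 1 list. The connective tissue mast cell proteases Mcpt4 (697, 784, 631, 522 and 921 against 37.9, 36.5 and 31.4), Tpsb2 (4.64), Cpa3 (2.89) and Cma1 (1.71) were called higher under the spleen label. The basophil protease Mcpt8 (-4.07), the receptor chains Ms4a2 (-1.89) and Fcer1a (-1.23), and Hdc, which makes histamine (-1.29), were called higher under the lymph node label, and Fcer1a overlapped all the same. Kit, the receptor of mast cells and progenitors, did not pass the test (0.04). Progenitor genes gave 3 calls in 10 rows, close to the share of all rows called (27.1%). They were Gfi1b (-5.22), which red cell and platelet precursors use, and in the other direction Cd34 (2.14) and Hlf (3.04), the former also a gene of vessels. The list had 2 calls under the lymph node label in place of 1 without replicate 1 or 5 of the spleen label, without replicate 2 or 3 of the lymph node label, and without either set of libraries labelled spleen.

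Cell cycle genes were called higher under the lymph node label in 9 of 19 rows, and in none under the spleen label by this test. Cdk1 had 1039, 1154 and 891 normalised read counts against 330.2, 359, 375, 364 and 467 (log2 difference of -1.44, SE 0.12, adjusted p = 3.49e-06). Mki67 differed by -0.96 and fell short of 2-fold. On the deposited scale, on which the median log2 difference of all rows was -0.16, 14 were called, and leaving out 1 library gave 6 to 10. Of 10 immediate early and stress genes, Egr1 (1.77) and the row of the heat shock genes Hspa1a and Hspa1b (2.08) were called higher under the spleen label. This is near the share of all rows called in that direction (15.3%). Without replicate 2 of the spleen label or replicate 3 of the lymph node label 4 were called. Such transcripts respond to handling of tissue, and their part in the other results was not tested.

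Transcripts of tissues that surround lymphoid organs moved with the labels. Adipocyte genes were called higher under the spleen label in 14 of 15 rows, with a median log2 difference of 7.25. Their summed normalised read counts were 57202, 286557, 98493, 284558 and 231087 in replicates 1 to 5 of the spleen label, against 6704.5, 7002.7 and 6559.9 under the lymph node label. The exception was Pparg, the master factor of fat cells that spleen macrophages also express, with 318, 1251, 418, 840.3 and 775 against 599, 549.6 and 614 (adjusted p = 0.779). The count was 14 too with replicates 1 and 3 left out and with replicates 2, 4 and 5 left out. Of 5 tested brown fat genes Cidea (81.4 to 723 against 0 to 4.84) and Ucp1, the uncoupling protein (7.54 to 81.3 against 1.61 to 1.74), were called, and 4 were called without replicate 1 of the spleen label or without replicates 1 and 3.

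Collagen and matrix genes were called higher under the spleen label in 14 of 17 rows. Decorin (Dcn) was even, with 12325, 14585, 10678, 12319 and 15401 normalised read counts against 967, 972 and 1113 (log2 difference of 3.67, SE 0.11, adjusted p = 7.74e-09). Col1a1 was not, with 2666, 9119, 4556, 5535 and 17589 against 329, 470.4 and 389.9, and replicate 5 was the highest library for the list as a whole. Col14a1 was higher under the lymph node label (-1.82).

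Epithelial genes of skin and mammary gland were called higher under the spleen label in 8 of 9 tested rows. The basal keratin Krt5 stood at 52.8, 154, 17.99, 308 and 814 under the spleen label and had no read in the others, and the milk protein gene Csn3 at 66.4, 523, 59.1, 552 and 596 against 2 reads in all. The luminal keratins Krt8 and Krt18 differed by 5.65 and 5.16. Replicates 1 and 3, low in fat transcripts, had the lowest sums of this list (964 and 893), and replicates 2, 4 and 5 had 4934, 4644 and 6583, against 218 to 317 under the lymph node label. The part of surrounding tissue in the genes called higher under the spleen label was not tested gene by gene. Left out together, replicates 2, 4 and 5 took the count of rows called higher under the spleen label from 2912 to 2537, and replicates 1 and 3 took it to 3185.

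Tissue next to the spleen gave less. The mesothelial genes Msln, with 115, 147 and 164 normalised read counts under the lymph node label and 0 to 3.59 under the spleen label, and Upk3b (-4.63) were called higher under the lymph node label, while Krt19, of mesothelium and of ducts, was higher under the spleen label (5.09), as was Myh11, the smooth muscle myosin (1.13). Of the latter 2 only 1 was called without replicate 5, or without replicates 2, 4 and 5, of the spleen label. Of 10 exocrine pancreas rows 8 were under the filter, none of them above 12.9 normalised read counts in any library. The called one, Cela1 (989.7, 986 and 925 against 34.7 to 69.0), encodes an elastase that other tissues express as well. Of skeletal muscle genes Myh1 was called higher under the lymph node label (-2.15), and Acta1 and Myh4 were called higher under the spleen label although their libraries overlapped. Neither of these was called without replicate 1 or without replicate 2 of the lymph node label, or without replicates 2, 4 and 5 of the spleen label, and only 1 was without replicate 3 of the lymph node label or replicate 2, 3 or 5 of the spleen label.

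**Figure D4:**
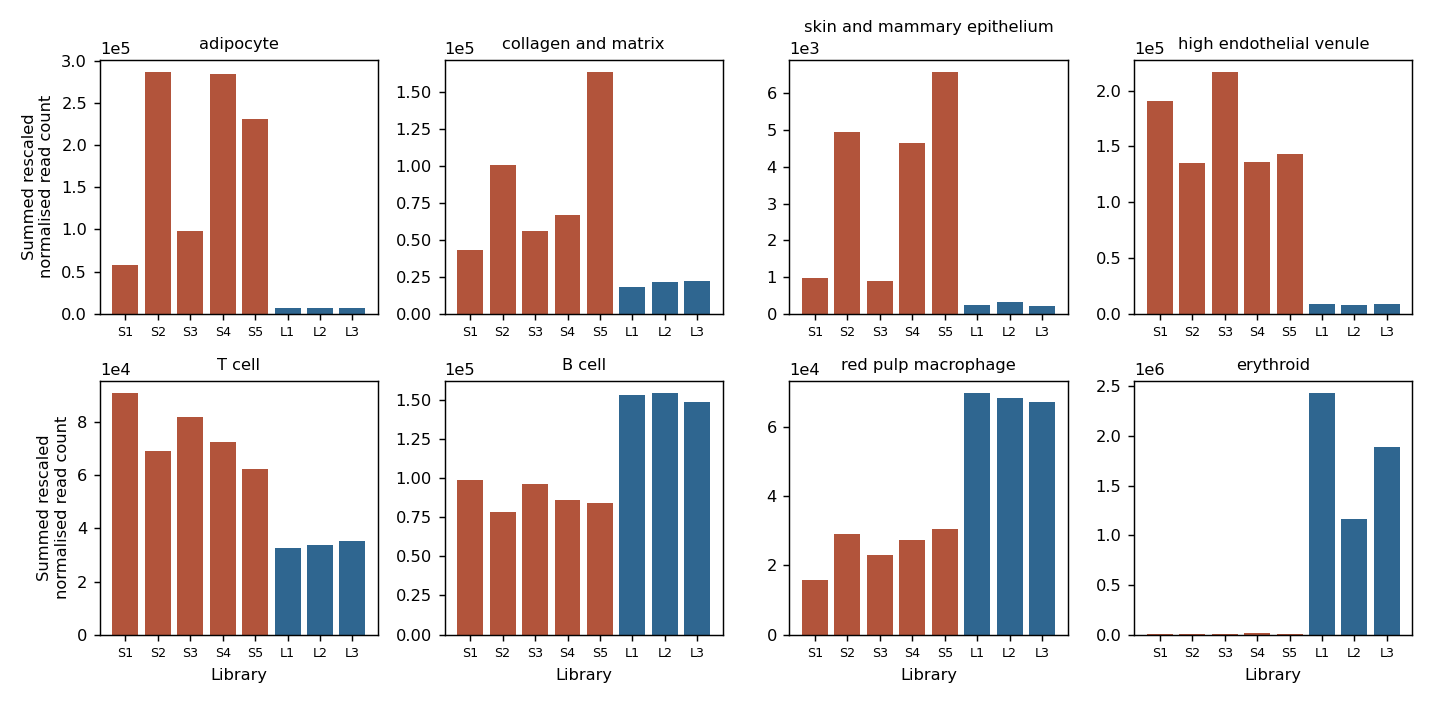
Summed rescaled normalised read counts of 8 gene lists in each untreated library, S1 to S5 being replicates 1 to 5 of the spleen label and L1 to L3 replicates 1 to 3 of the lymph node label; each panel has its own linear axis from 0. Adipocyte and epithelial sums are low in S1 and S3 and high in S2, S4 and S5, while sums of high endothelial venule and T cell genes are highest in S1 and S3.

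Lists were then set beside their values in the treated libraries. The high endothelial venule list gave 10 calls for the spleen label and 1 in the other direction in both sets, with medians of 2.18 and 2.23, and the red pulp macrophage list 13 under the lymph node label in both, with medians of -2.41 and -2.65. For Hox genes the calls under the spleen label were 16 and 17, with 0 and 1 in the other direction (the row of Hoxb7 and Hoxb8, with a log2 difference of -1.12 in the treated libraries), for migratory dendritic cells 6 and 6, for adipocytes 14 and 14, and for neutrophils and their precursors 12 and 12 under the lymph node label. The T cell list had 12 calls in the untreated and 6 in the treated libraries, with medians of 1.14 and 0.85, and the cell cycle list 9 and 4. Erythroid genes had 26 and 20 calls, with medians of -7.04 and -4.95, and for Sptb and Ank1, which encode red cell membrane skeleton proteins, the log2 differences were -2.41 and -2.01 in the untreated and -0.21 and -0.08 in the treated libraries. Medians also stood apart for brown fat genes (0.98 and 3.05, with 2 of 5 and 5 of 6 tested rows called under the spleen label), exocrine pancreas genes (-2.51 over 2 tested rows and -1.43 over 9), macrophages of the marginal zone and sinus (0.91 and 0.11) and plasma cell genes (-0.75 and -1.51). Whether the difference between the labels itself differed between untreated and treated mice was not tested.

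**Figure D5:**
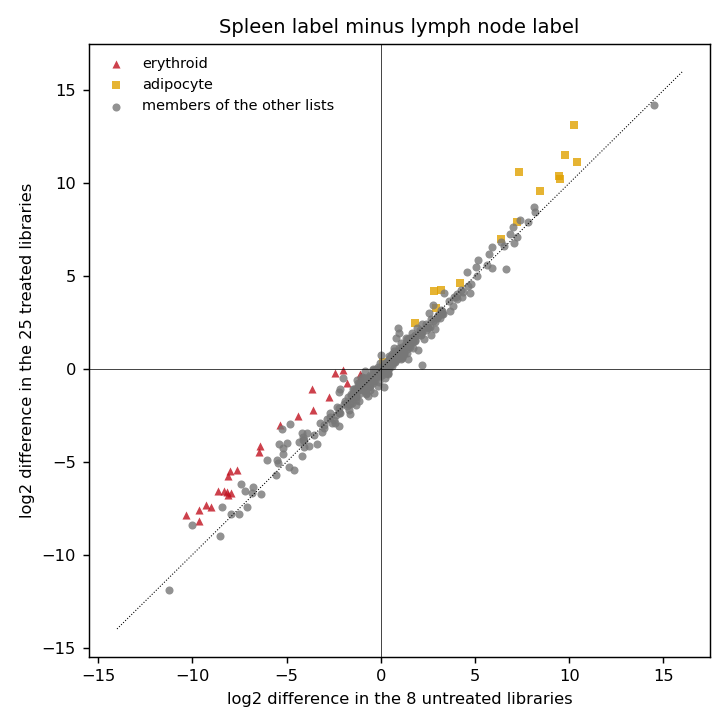
Log2 difference, spleen label minus lymph node label, in the 8 untreated libraries (horizontal) and the 25 treated libraries (vertical) for tested members of the gene lists, which share no sample. The dotted line marks equal differences; erythroid genes (triangles) lie closer to 0 in the treated libraries, with a list median of -4.95 against -7.04, and adipocyte genes (squares) farther from 0, with 7.91 against 7.25.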

How the data were processed

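Polyadenylated RNA of organs labelled spleen or lymph node from untreated C57Bl/6 mice was sequenced as paired ends (TruSeq mRNA libraries). The submitters' processing notes name STAR 2.4.0, DESeq2 and the mm10 build, with no order or settings. For other data of the study the authors counted reads on the constitutive regions of each gene, and whether that held here and whether counting used strand are not given in the sources used here, so overlapping antisense genes cannot be told apart. The deposited values are normalised read counts, a signal relative to a size factor per library, and not raw counts. Relative to a common scale of the 8 libraries they stood 1.03 to 1.04 times as high in every library labelled spleen and 0.941 to 0.944 times in every library labelled lymph node. In all 8 libraries every value was a whole multiple of 1 read (tolerance 0.01), so whole read counts were recovered from the deposited signal. No column lacked a sample (0), and 30657 of 56414 rows had no symbol.

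The 8 libraries were rescaled together by the median of ratios, and the 18971 rows with a mean of at least 10 under either label were tested with limma 3.58.1 (R 4.3.3; intensity trend, two-sided) on log2(value + 1), a scale that understates the change of low genes. Benjamini-Hochberg adjustment covered all rows tested, and a call needed an adjusted p under 0.05 and at least 2-fold. Differences are coded spleen label minus lymph node label. Where all libraries of a label had no read, a bound was computed against a floor of 3 reads per library, and with 1 to 3 reads a ratio with its exact 95% counting interval was given; both cover counting error only. No test was run on a list, for which counts and the median are given. No 2 libraries had identical values. The labels do not say that the libraries of a group came from separate animals, so p-values measure the spread between these libraries. Replicate numbers were not used to pair the labels in the main fit, since it is not given whether they mark an animal.

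The leading rows are the 12 with the largest difference in each direction among called rows with 1 symbol, a mean of at least 100 in the higher label and no overlap of libraries, passing over predicted genes and antigen receptor segments. Of each list up to 4 called members with the largest difference, up to 2 called against the majority and the defining markers were to be named. Other members named were chosen after their values were seen. The groups, the 36 gene lists and the tests were chosen with earlier results of these data known. Of 436 list names 423 had a row and 394 were tested. The pipeline was run on simulated reads in which both labels had the spleen label means and 200 of 17919 rows were changed. The call recovered 45% of 2-fold changes, which lie at its limit, and 100% of 4-fold changes. Far fewer rows differed there than here (62.1% at any fold), so the scaling was not tested under so broad a difference. Alternatives were other scalings, pseudocounts (0.1 and 5), filters, fold limits, library weights, a replicate block, each library left out, and edgeR 4.0.16 and DESeq2 1.42.0 on recovered reads. Some list members are counted and not reported here by name. Promoter windows came from RefSeq.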

Additional observations from a re-analysis of the deposited data

Results flagged for a closer look

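Of 63 sets of 5 libraries looked at, 3 held a library far from the others by Dixon's test. In each, 1 library labelled spleen had 2 or 3 reads of a gene that the other 4 had at 0. With 4 values at 0 any read in the remaining library is flagged, so the usual chance rate of about 1 in 20 does not apply. Tcf21, the mesenchymal factor, stood at 1.64 normalised read counts in replicate 2. Trim10, an erythroid gene, stood at 2.46 in the same library. Nkx2-3, the homeobox factor of spleen vessels, stood at 1.79 in replicate 5. All lie below the floor of 3 reads or at it, far under the lymph node label, where Tcf21 ranged from 2491 to 3390.3, Trim10 from 672 to 1960 and Nkx2-3 from 449.7 to 466.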

How the results depend on the processing

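The 5140 calls, 2912 higher for spleen-labelled and 2228 for lymph node-labelled libraries, stayed within 1.5-fold under 23 alternatives. They moved under 2 others: an unadjusted p under 0.05 together with 1.5-fold gave 8366 (4472 and 3894), and a limit of 4-fold gave 1862 (1095 and 767). With 1 library left out the calls ranged from 4726 to 5217, those under the spleen label from 2765 to 3015 and those under the lymph node label from 1948 to 2227, and rows past the adjusted p at any fold from 10132 to 11975. DESeq2 gave 3068 and 2119 calls and edgeR 3088 and 2151. On the deposited scale 48.0% of calls were under the spleen label, against 56.7% on the common scale. Leaving out sets of libraries labelled spleen was chosen after seeing the data. The list median changed sign for exocrine pancreas with no filter (0.37 from -2.51), for plasmacytoid dendritic cells without replicates 1 and 3 of the spleen label (-0.021 from 0.16), and for smooth muscle and mesothelium without replicates 2, 4 and 5 (-0.076 from 0.31). The log2 differences of 27 genes (the 24 leading rows and the organ markers) kept direction and side of the threshold in all 621 values recomputed; other genes named lost or gained a call, as given beside them. The treated count ranged from 4603 to 5353 under 5 alternatives.

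Same-numbered libraries of the labels correlated at 0.016, 0.006 and -0.001 in their deviations, and differently numbered ones at -0.075 to 0.073. No pair known to come from 1 animal was at hand for comparison, so these values cannot show whether a number marks an animal. With the replicate number as a block 10553 rows passed the adjusted p at any fold and 4945 were called, 2713 and 2232 in the same order.

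With 3 libraries under the lymph node label the spread there is known poorly. Rows at a few reads carry counting error, and a bound against 0 grows with depth.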
